A study of Homo sapiens with 4 samples.

Results

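The peaks described here are the isolated broad peaks that SMAD1 chromatin immunoprecipitation and sequencing (ChIP-seq) gave in untreated H1 cells and not after BMP4. H1 is a long-used line of human embryonic stem cells (hESCs), grown here in the pluripotency medium mTeSR1. One group was left untreated (0 min) and the other received BMP4 at 50 ng/ml for 60 min. Both groups were fixed, sheared and precipitated with the same SMAD1 antibody, which was not specific to the phosphorylated form by its label. The series has 4 samples, 1 ChIP and 1 input per condition, and the ChIP peak lists were used.

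A peak was a member when it was 1000 to under 2000 bp wide, had no BMP4 peak within 10 kb, and had no other untreated peak with its midpoint within 10 kb. This gave 196 members of the 5203 untreated peaks, or 3.77% (95% exact binomial interval 3.27 to 4.32), and of 12885 peaks in both lists. Members were thus chosen by their width and by the lack of BMP4 peaks nearby, so both are given as description and support nothing. The members covered 254 kb on all 24 chromosomes that the lists name. With 1 list per condition there was no replicate error and no test between conditions, and the sources used here give a mean read count over libraries but not the depth of each. Intervals cover the number of peaks alone, not variation between cultures. A missing peak means that no region there scored 50 or more.

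SMAD1 carries the BMP signal from receptors at the cell surface to the nucleus. After phosphorylation by BMP receptors it joins SMAD4 and binds short GC-rich sites and SMAD boxes on DNA, where it acts with other factors on target genes such as the ID family. Without BMP most SMAD1 is unphosphorylated and moves in and out of the nucleus, so peaks seen only in untreated cells are the reverse of the gain of binding that BMP is known for.

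The rule kept few peaks of this width. Of the 5203 untreated peaks, 917 were 1000 to under 2000 bp wide. Among these, 481 (52.5%) overlapped a BMP4 peak and another 136 (14.8%) had a BMP4 peak within 10 kb without overlap. The other 300 had none within 10 kb, which is 32.7% of this width class, against 71.3% of untreated peaks of all widths. Of these 300, 104 were dropped because a second untreated peak lay within 10 kb. The same rule with the lists exchanged gave 394 isolated broad BMP4-only peaks of 7682, or 5.13% (4.65 to 5.65). They were 2.01 times as many as the untreated members (95% exact interval of the ratio 1.69 to 2.40). Both numbers belong to the deposited lists, which are far longer than the peak sets the study describes, and many members may lie outside those sets. In the BMP4 list, 42.3% of peaks of this width and 81.5% of all peaks had no untreated peak within 10 kb.

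Most members lay in the upper part of the untreated list by score. The score is the value the authors' peak caller gave each peak, and it rises as the p-value of the peak falls. The lowest member score was 50.1, the median was 105 (95% order-statistic interval 99.4 to 115) and the highest was 800. A score of at least 100 was held by 111 of the 196 members, or 56.6% (49.4 to 63.7), against 21.3% of all untreated peaks. Members were chosen to be wide, so peaks of all widths are an unlike background. Of the untreated peaks of this width that overlapped a BMP4 peak, 83.0% (79.3 to 86.2) reached 100. Only 29 members reached 200, 12 reached 300 and 4 reached 500. Ranked within the untreated list, the best member was number 269 and the median member was number 1051. Among the 1000 highest scores of that list of 5203 peaks were 91 members, or 46.4% (39.3 to 53.7). The share was 80.5% (76.6 to 83.9) of the overlapping peaks of this width. It was 2.46% (1.94 to 3.07) of isolated untreated-only peaks under 1000 bp.

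Width and score went together across classes but not inside the members. Isolated untreated-only peaks under 1000 bp, of which there were 3049, had a median score of 57.1 (56.8 to 57.5), which was 47.9 below that of the members. Per kb of width the classes were close, with a median of 89.7 (80.0 to 96.2) for members and 90.5 (90.0 to 90.9) for the narrower peaks. Among the narrower peaks score rose with width, with a Spearman rho of 0.49 across 3049 peaks. Among members it was -0.02 across 196 peaks. These coefficients are across peaks of 1 library, which are not replicates.

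Untreated peaks of the same width that overlapped a BMP4 peak scored far higher. Their median was 609 (407 to 748) over 481 peaks. The difference in median, members minus shared peaks, was -504 (limits from opposite ends of the median intervals, -649 to -292). This held in each band of width. From 1000 to under 1250 bp the medians were 108 for 106 members and 867 for 300 shared peaks. From 1250 to under 1500 bp they were 115 for 46 members and 243 for 67 shared peaks. From 1500 to under 1750 bp they were 77.7 for 29 members and 307 for 67 shared peaks. In the widest band they were 105 for 15 members and 241 for 47 shared peaks. The order-statistic intervals of members and shared peaks did not overlap in the 3 narrower bands, and did overlap in the widest (70.6 to 258 against 131 to 726).

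**Figure D1:**
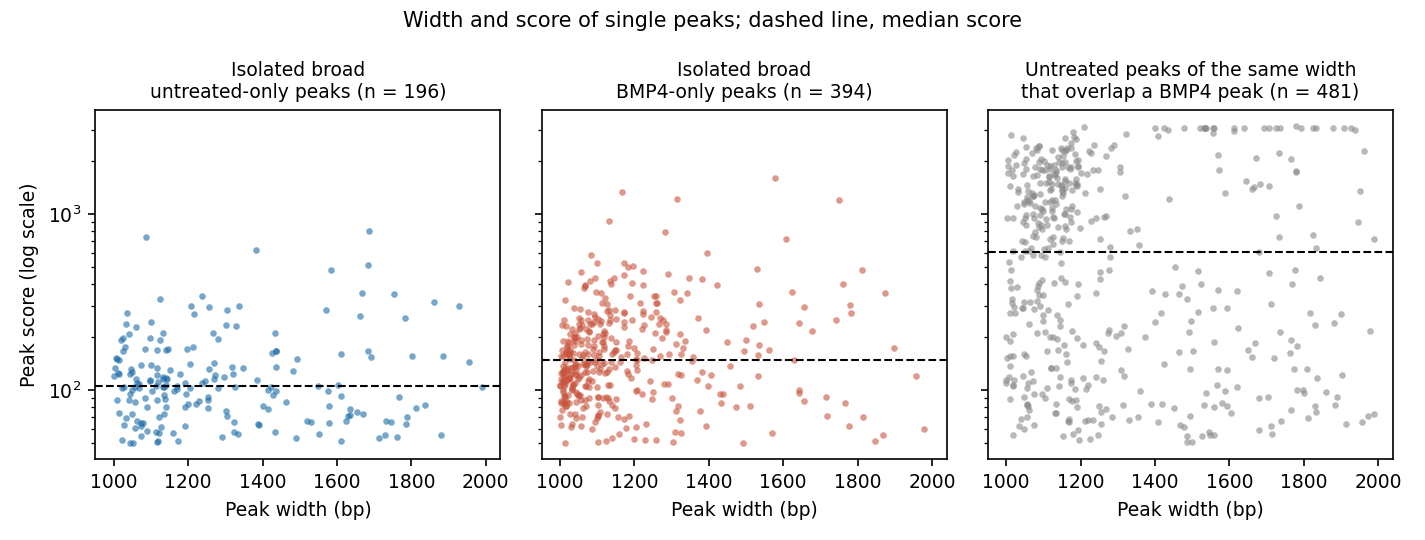
Each point is 1 peak, with its width in bp on the x axis and its score on a logarithmic y axis, for the 196 members, the 394 isolated broad BMP4-only peaks and the 481 untreated peaks of the same width that overlap a BMP4 peak. The dashed lines are the median scores of 105, 148 and 609. The members reach no higher than 800, and a dense group of shared peaks lies above 1000 at widths under 1250 bp.

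Untreated peaks of this width were split by score to see where members occurred. Between scores of 50 and 60, 22 of 76 peaks were members, or 28.9% (19.1 to 40.5). The share was 36.0% (28.6 to 43.8) between 100 and 150, 26.2% (16.0 to 38.5) between 200 and 300, and 14.8% (6.62 to 27.1) between 300 and 500. At 500 or more, 4 of 254 peaks were members, or 1.57% (0.431 to 3.98), and 249 overlapped a BMP4 peak. In the BMP4 list the share of isolated BMP4-only peaks was 21.6% (12.9 to 32.7) between 50 and 60 and 61.3% (51.5 to 70.4) between 200 and 300. At 500 or more it was 3.72% (1.93 to 6.40), so the strongest broad peaks of both lists were mostly shared.

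**Figure D2:**
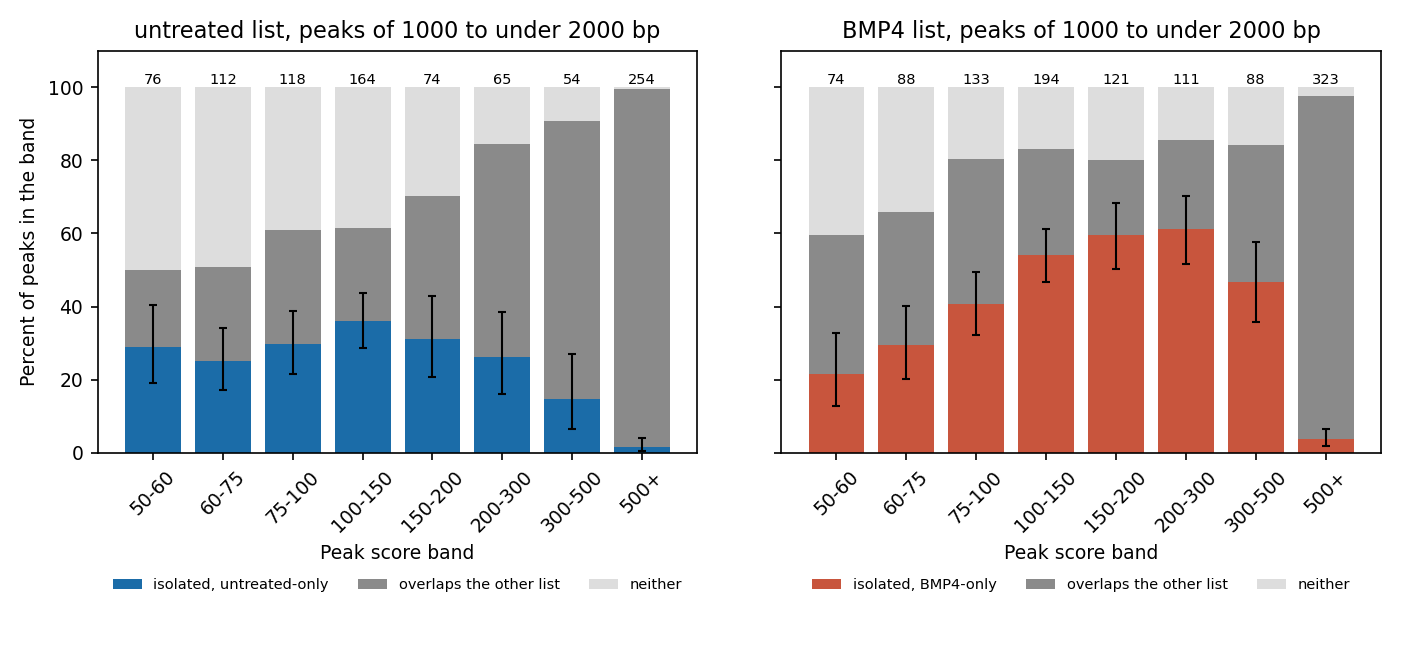
Bars show, for peaks of 1000 to under 2000 bp in bands of score, the percent that were isolated and found in that list alone (coloured, with the 95% exact binomial interval), that overlapped the other list (dark grey) and the rest (light grey), with the number of peaks above each bar. The untreated-only share is highest at 36.0% between 100 and 150, the BMP4-only share at 61.3% between 200 and 300, and both fall below 4% in the top band, to 1.57% and 3.72%.

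Compared with the isolated broad BMP4-only peaks, the members were lower in score and in percent rank, and more spread in width. The BMP4-only peaks had a median score of 148 (137 to 160), with 75.6% at 100 or more (71.1 to 79.8), against 20.2% of all BMP4 peaks. Since the depth of each library was not given and scores rise with depth, ranks were also compared. The median member lay at the top 20.2% of its list (18.2 to 21.4) and the median BMP4-only peak at the top 12.2% of its own (11.1 to 13.1). Percent ranks depend on the length of each list, 5203 and 7682 peaks. By rank number the medians were 1051 (945 to 1114) and 936 (851 to 1010). The shares among the 1000 highest scores were 46.4% (39.3 to 53.7) and 54.3% (49.3 to 59.3). Both of these pairs of intervals overlapped. Of the members, 30.6% (24.2 to 37.6) were at least 1400 bp wide, against 12.4% (9.34 to 16.1) of the BMP4-only peaks. With a limit of 1500 bp these shares were 22.4% and 9.39%. Peaks of the same width that overlapped the other list were close to the members. At least 1400 bp wide were 29.1% (25.1 to 33.4) of those in the untreated list and 28.0% (24.3 to 31.9) of those in the BMP4 list. The number of BMP4-only peaks fell steeply from 175 at 1000 to under 1100 bp to 30 at 1300 to under 1400 bp. That of members fell from 52 to 17 over the same steps, and was 16 again at 1600 to under 1700 bp.

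The highest member lay on chromosome 9 from 35970864 to 35972549 (hg19), 1686 bp wide, with a score of 800. The nearest BMP4 peak was 237 kb away and scored 58.8. Second came a peak of only 1087 bp on chromosome 1, from 230838208 to 230839294, which scored 746 and had the nearest BMP4 peak at 199 kb. It was also the most concentrated member, with a score of 686 per kb. The chromosome 9 peak followed with 474 per kb. A peak on chromosome 14, from 66479303 to 66480685, came next by score (622) and per kb (450). It was the one member on that chromosome, which held 144 untreated peaks.

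The members next in score were a peak on chromosome 12, from 17143346 to 17145029, at 513, and a peak of 1585 bp on chromosome 8, at 479. The chromosome 8 peak had another untreated peak 11.9 kb away, with a score of 51.9. Scores of 356 and 351 were held by peaks on chromosome 2 from 175584205 to 175585870 and on chromosome 4 from 88813369 to 88815121. The chromosome 4 peak stood alone, with no other untreated peak within 500 kb and a single BMP4 peak, 27.6 kb away.

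Of the last 3 of the 10 highest members, that on chromosome 1 from 145276828 to 145278064 (score 341) had crowded surroundings. Within 500 kb of it lay 19 other untreated and 14 BMP4 peaks. The peak on chromosome 10 from 81272020 to 81273142 (score 328) had none and 2. The peak on chromosome 12 from 44053511 to 44055371 (score 315) had 3 and 1. Across all 10, the BMP4 peak nearest to the member scored between 50.2 and 81.1, all under 100. Of all BMP4 peaks, 20.2% scored 100 or more.

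**Figure D3:**
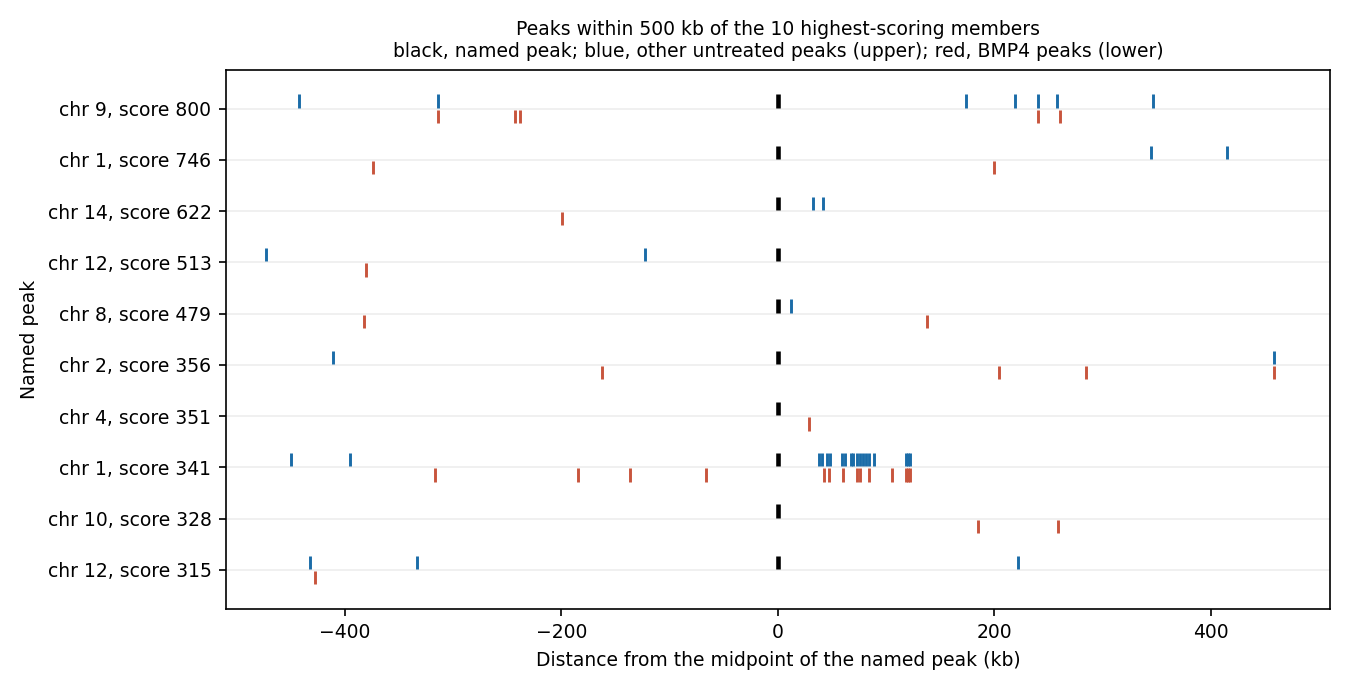
Each row shows the 500 kb on both sides of 1 of the 10 highest-scoring members (black), with other untreated peaks in blue above and BMP4 peaks in red below, by distance in kb from the midpoint of the member. In most rows a handful of peaks is scattered over the whole window, and the chromosome 1 peak with a score of 341 has a dense block of peaks of both lists to one side.

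The weakest members lay close to the limit of the list. The lowest score was 50.1, on chromosome 10 from 47085502 to 47086545, followed by 50.3 on chromosome 1 from 143509363 to 143510413. These peaks had 3 and 22 other untreated peaks within 500 kb.

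What lay around the members was then described beyond the 10 kb that the rule used. The nearest BMP4 peak was a median of 99.9 kb away (72.2 to 131), with a range from 10.2 to 1792 kb. For 50.0% of members (42.8 to 57.2) it lay within 100 kb, against 39.2% (37.5 to 41.0) of the narrower isolated untreated-only peaks. This nearest BMP4 peak was much like the BMP4 list as a whole. It scored a median of 63.2 (59.0 to 67.7), against 63.3 for all BMP4 peaks. It was under 100 for 150 members (76.5%) and at least 1000 for 4, while 20.2% of all BMP4 peaks scored 100 or more. It overlapped no untreated peak for 161 of 196 members, or 82.1% (76.1 to 87.2). Of all BMP4 peaks, 81.5% had no untreated peak within 10 kb, a stricter measure. For 10 members (5.10%) the nearest BMP4 peak was one of the isolated broad BMP4-only peaks, which were 5.13% of their list.

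Members had more untreated neighbours than narrower isolated peaks. The nearest other untreated peak lay at a median of 79.6 kb (61.8 to 117) from members and 203 kb (191 to 220) from narrower peaks. At least 5 other untreated peaks lay within 500 kb for 76 members, or 38.8% (31.9 to 46.0), and for 12.5% (11.3 to 13.7) of narrower peaks. Isolated broad BMP4-only peaks and members both had a median of 3 other peaks of their own list within 500 kb. At least 5 lay there for 25.4% (21.2 to 30.0) of these BMP4-only peaks. Untreated peaks of the same width that overlapped a BMP4 peak, which need not be isolated, had a higher share of 63.0% (58.5 to 67.3). No peak of either list lay within 50 kb of 98 members (50.0%, 42.8 to 57.2) or within 100 kb of 65 (33.2%, 26.6 to 40.2). These shares were higher in the other isolated classes. They were 69.1% and 46.3% of narrower untreated-only peaks, and 63.7% and 40.9% of isolated broad BMP4-only peaks. For 20 members (10.2%, 6.35 to 15.3) there was none within 250 kb, and for 1 none within 1000 kb.

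Crowded members were wider and weaker than sparse ones. With another untreated peak 10 to 25 kb away, 42 members had a median width of 1409 bp (1296 to 1579) and a median score of 77.7 (66.4 to 99.0). With the nearest at over 250 kb, 43 members had a median width of 1137 bp (1100 to 1205) and a median score of 129 (105 to 154). The intervals did not overlap for either measure. A score of at least 100 was held by 33.3% (19.6 to 49.5) of the first group and 72.1% (56.3 to 84.7) of the second. A width of at least 1400 bp was held by 52.4% (36.4 to 68.0) and 18.6% (8.39 to 33.4). Across the 196 members, score had a Spearman rho of 0.36 and width of -0.23 with this distance.

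The isolated broad BMP4-only peaks were split in the same way by distance to the nearest BMP4 peak. At 10 to 25 kb, 48 of them had a median width of 1116 bp (1087 to 1199) and a median score of 135 (95.6 to 191). At over 250 kb, 95 had a median width of 1131 bp (1094 to 1194) and a median score of 161 (140 to 178), and both pairs of intervals overlapped. The share at 100 or more was 64.6% (49.5 to 77.8) at 10 to 25 kb and 84.2% (75.3 to 90.9) at over 250 kb. By number of neighbours, the share at 100 or more was 62.0% (51.7 to 71.5) of the BMP4-only peaks with at least 5 other BMP4 peaks within 500 kb and 80.6% (73.8 to 86.2) of those with up to 2. For members these shares were 36.8% (26.1 to 48.7) and 69.2% (57.8 to 79.2), so crowded peaks of both lists less often reached 100. A width of at least 1400 bp was held by 42.1% (30.9 to 54.0) and 21.8% (13.2 to 32.6) of members, and by 12.0% (6.36 to 20) and 12.9% (8.29 to 18.9) of BMP4-only peaks. The rho values were 0.10 for score and 0.02 for width across 394 peaks. The difference between the lists in this pattern was not tested.

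**Figure D4:**
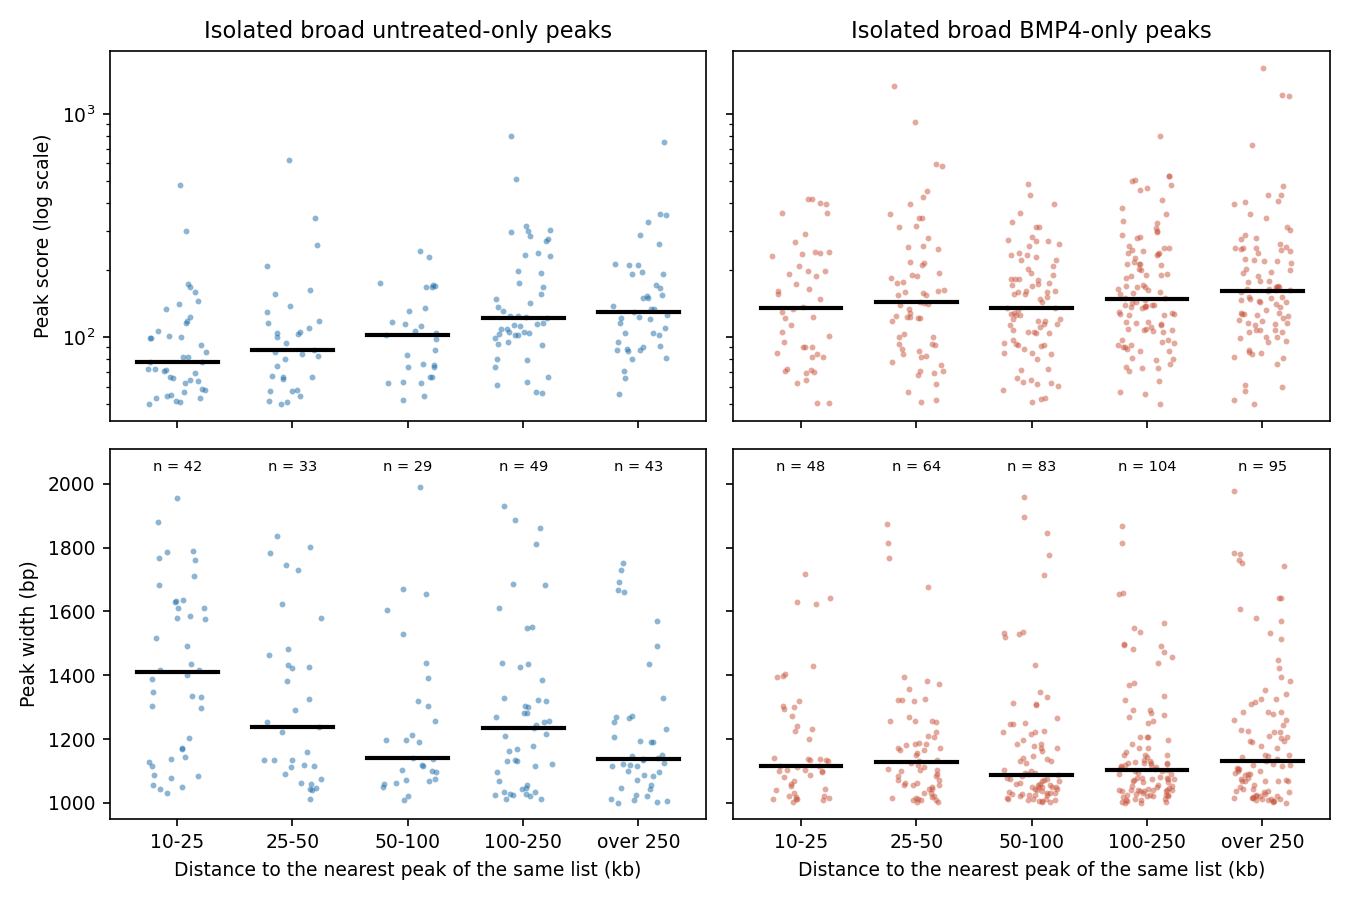
Points are single peaks in bands of distance (kb) from their midpoint to the nearest other peak of the same list, with score on a logarithmic axis above and width in bp below, for members on the left and isolated broad BMP4-only peaks on the right. Thick lines are medians, which for members go from 77.7 to 129 in score and from 1409 to 1137 bp in width between the first and the last band. For BMP4-only peaks they go from 135 to 161 and from 1116 to 1131 bp.

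Members lay at the edges of the longest stretches without any peak more often than the classes compared here did. On each chromosome the longest stretch with no peak of either list was found. Such stretches often span a centromere, whose repeats short reads cannot be placed in, but no annotation of hg19 was used to check this. Within 2 Mb of such a stretch lay 36 of 196 members, or 18.4% (13.2 to 24.5). The share was 5.84% (3.74 to 8.63) of isolated broad BMP4-only peaks, 3.21% (2.62 to 3.90) of narrower isolated untreated-only peaks and 8.52% (6.19 to 11.4) of shared untreated peaks of the same width. It was 2.57% (2.16 to 3.04) of narrower isolated BMP4-only peaks and 8.44% (6.27 to 11.1) of shared BMP4 peaks of the same width. The share over all peaks of each list is not given here. The stretches were defined by these same peaks, and members on chromosomes 7, 16, 17 and 21 formed the edge of one. Within 1 Mb the shares of members and BMP4-only peaks were 15.3% and 3.55%, and within 5 Mb they were 29.1% and 11.7%.

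Members at these edges were wider and lower in score, and had a median of 7 other untreated peaks within 500 kb against 3 for the rest. The 36 members within 2 Mb had a median score of 71.9 (62.1 to 91.9) and a median width of 1439 bp (1271 to 1610). The other 160 members had a median score of 114 (105 to 123) and a median width of 1184 bp (1137 to 1230). On chromosome 1, where the stretch ran from 121474048 to 142535283, 6 members lay within 2 Mb of it, among 73 untreated and 37 BMP4 peaks. On chromosome 21, with a stretch from 11187106 to 14337986, there were 4 members among 75 untreated and 28 BMP4 peaks. Chromosomes 7 and 16 had 5 members each at such edges. The isolated broad BMP4-only peaks showed the same order. The 23 of them within 2 Mb had a median score of 81.4 (62.3 to 149) and a median width of 1246 bp (1116 to 1433), against 151 (139.6 to 161) and 1105 bp (1094 to 1125) for the other 371. At the edges 55.6% (38.1 to 72.1) of members and 30.4% (13.2 to 52.9) of BMP4-only peaks were at least 1400 bp wide. Away from the edges, 40 of 160 members (25%, 18.5 to 32.4) were still at least 1400 bp wide, against 11.3% (8.28 to 15.0) of BMP4-only peaks. The part of unplaced repeats in these peaks was not tested.

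Some members lay near one another, and these were grouped into runs. No such grouping was made for the other classes. Whether members form runs more often than other peaks was therefore not tested. When members with midpoints up to 1 Mb apart were joined, 133 stood alone, 12 pairs formed, and 39 members fell in 10 runs of 3 or more. The longest run had 7 members, on chromosome 1 from 144586400 to 146472509, with scores from 65.0 to 341 (median 94.1). That span held 29 untreated and 21 BMP4 peaks, 6 of them isolated broad BMP4-only peaks. On the same chromosome, 4 members lay between 142598393 and 143510413, among 44 untreated and 14 BMP4 peaks, and scored 50.3 to 104. A further run of 3, from 148013497 to 148854438, scored 69.2 to 74.3.

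Near the start of chromosome 11, 6 members lay between 584789 and 1213936, with scores of 66.4, 169, 118, 82.2, 299 and 194 in order of position. This was the strongest of the runs of 4 or more, with a median of 144, and its span held 9 untreated and 3 BMP4 peaks. None of those untreated peaks overlapped a BMP4 peak. On chromosome 2, a run of 3 from 64602523 to 65433323 had scores of 105, 284 and 148. Its span held no other untreated peak and 1 BMP4 peak. Near the end of chromosome 4, 3 members between 190572405 and 190818518 were alike, with widths of 1635, 1744 and 1623 bp and scores of 77.7, 66.3 and 66.8. On chromosome 21, 4 members between 10012029 and 11187105 lay among 54 untreated and 16 BMP4 peaks in that span, and scored 53.1 to 102.

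By chromosome, members were most numerous on chromosome 1 (28), chromosomes 2 and 11 (17 each) and chromosome 7 (14). As a share of the untreated peaks there, they were highest on chromosome 11, with 6.56% (3.87 to 10.3), and lowest on chromosome 14, with 0.694% (0.0176 to 3.81), a pair picked as the extremes of 24 chromosomes. On chromosome 6, 5 of 358 untreated peaks were members (0.455% to 3.23%). On chromosomes 11, 21 and Y members outnumbered the isolated broad BMP4-only peaks, with 17 against 12, 5 against 3 and 2 against 1, whereas over all chromosomes they were 196 against 394.

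Chromosome X held 7 members and no isolated broad BMP4-only peak, although the lists named 119 untreated and 116 BMP4 peaks there. For the BMP4 list this is 0 of 394, which allows a share of up to 0.761% when 3 counts are taken as the limit and 0.932% by the exact interval. Of the members, 3.57% (1.45 to 7.22) lay there, and this interval held the 2.29% (1.90 to 2.73) of all untreated peaks that did. The 7 members scored 88.0, 286, 212, 104, 80.7, 57.1 and 90.2 in order of position. Their nearest BMP4 peaks lay between 443 and 1792 kb away, with a median of 820 kb. BMP4 peaks were sparse on this chromosome for other untreated-only peaks too, since the 63 narrower isolated ones there had a median gap of 532 kb (352 to 811) and a range from 15.4 to 4729 kb. The farthest of all members from a BMP4 peak was on chromosome X from 46298914 to 46300347, at 1792 kb. The next, from 58551270 to 58552429, was 1400 kb away.

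**Figure D5:**
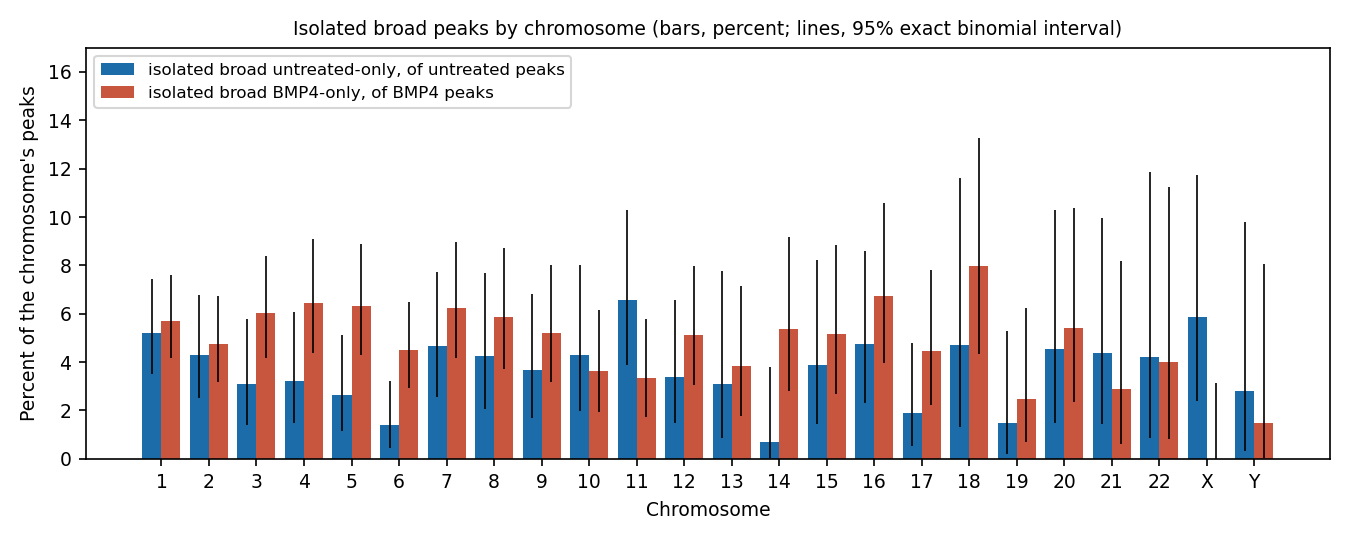
Bars give the isolated broad peaks of each list as a percent of the peaks of that list on the chromosome, untreated-only in blue and BMP4-only in red, with 95% exact binomial intervals. Chromosome 11 has the highest untreated-only bar (6.56%) and chromosome X has an untreated-only bar of 5.88% beside no BMP4-only peak, and most intervals overlap.

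The limits of the rule are shown by the peaks just inside and just outside them. The narrowest members were 1000 and 1004 bp wide and scored 120 and 134, and the peaks that just missed the lower limit, at 999 and 997 bp, scored 82.2 and 99.5. The widest members, of 1990 and 1955 bp, scored 105 and 145. Just above 2000 bp, peaks of 2007 and 2021 bp scored 260 and 126, and 28 isolated untreated-only peaks in all were 2000 bp or wider. The members closest to a BMP4 peak, at 10.2 and 10.4 kb, lay on chromosome 7 from 61254585 to 61255887 and on chromosome 12 from 132061062 to 132062118, and scored 71.7 and 85.8. Peaks at 9.86 and 9.04 kb from a BMP4 peak were kept out with scores of 145 and 69.3. The members with the closest untreated neighbours, at 10.2 and 10.4 kb between midpoints, scored 55.2 and 118, and peaks kept out at 9.95 and 9.53 kb scored 80.4 and 60.9.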

How the data were processed

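SMAD1 ChIP-seq peak lists of H1 hESCs, untreated and after BMP4, were used. Fixation was with 1% formaldehyde (10 min), and fragments were 100 to 400 bp after shearing. By the methods and the submitters' processing notes, the authors aligned reads to hg19 with BWA 0.7.5a, merged replicates, whose number is not given in the sources used here, and called peaks against input with MACS 1.4.2 at default settings. Merging removed the spread between replicates. Each deposited list holds many times more peaks than the study gives for it, and the untreated list is the shorter one here and the longer one there. The reason is not known. The deposited score of a peak is 10 times −log10 of its p-value in this version of MACS, and the lowest score in both lists was 50, which is a p-value of 1e-05. Deeper sequencing raises it. Per the methods, called peaks include enrichment at transfer RNA genes that the authors judged unspecific, and none was removed here.

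Distances to the other list were edge to edge, those within a list between midpoints. Starts are 1-based. The members and lists were chosen with earlier results of these data known, and the longest empty stretches, runs, crowding and their limits after the values were seen. The rule for named peaks took the 10 highest and 2 lowest scores, the 3 highest scores per kb, the 2 members farthest from and nearest to a BMP4 peak, and the 2 peaks on each side of each limit. Medians have 95% order-statistic intervals and shares exact binomial (Clopper-Pearson) ones. The limits of a difference in median pair the opposite ends of the 2 median intervals, and are not a 95% interval of the difference. On simulated lists the rule recovered 867 of 867 planted members. No test was run.

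The genome at hand was hg38, and on 15 of 24 chromosomes a listed peak ended past its end, so no sequence, motif or gene annotation is given. Python 3.11.15, numpy 2.4.6, pandas 2.3.3, scipy 1.17.1 and matplotlib 3.10.9 were used.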

Additional observations from a re-analysis of the deposited data

How the results depend on the processing

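The number of members, their median score, the share at 100 or more, the ratio to BMP4-only peaks and both score differences were recomputed under 15 other settings and 2 more chosen after seeing the data, where they applied. A number was taken as moved when it changed by over 1.5 times, and other values when they left the limits of the reported one. No difference changed sign. An isolation of 50 kb between untreated peaks left 121 members, with a median score of 117, 68.6% at 100 or more and a difference of 60.1 from narrower peaks. Widths of 900 to under 1800 bp gave 324 members, a median of 93.0, 45.1% at 100 or more, and differences of 36.2 from narrower and -289.7 from shared peaks. A minimum score of 60 in both lists gave 219 members, a median of 116 and 64.8%. A minimum of 100 gave 205 members, a median of 146 and differences of 16.6 (limits -1.28 to 42.3, which hold 0) and -1003. These minimum scores also left out weak neighbours, so the set of members changed. Of the reported members, 111 scored 100 or more. A gap of 50 kb to BMP4 peaks raised the ratio to 2.53. Leaving out peaks within 5 Mb of the longest empty stretch gave a median of 117, 66.9%, a ratio of 2.50 and differences of 60.1 and -683, and leaving out those within 2 Mb moved no value. The causes were not tested. With widths under 1500 bp, 4 of the 10 highest-scoring members remained. The planned sequence features and distances to gene starts were not run, since they need hg19. No paired analysis was possible because there is a single merged list per condition.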
